A study of Mus musculus with 12 samples.

Results

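The 37 genes of the mouse mitochondrial genome were followed in common lymphoid progenitors (CLPs), the bone marrow cells that give rise to lymphocytes. They were chosen as every gene of the deposited expression table whose symbol starts with mt-, 37 of 47643 genes, and comprise 13 messenger RNA, 2 ribosomal RNA, and 22 transfer RNA genes. CLPs had been sorted as Lin- Sca1lo cKitlo IL7Ra+ cells from male mice matched in age, and poly(A)+ RNA from each mouse gave 1 library. The 12 libraries form 3 groups of 4. WT mice carry the intact *Firre* locus, which makes a long noncoding RNA. ∆*Firre* (KO) mice lack the whole locus, which was removed in the germline with a CMV-Cre deleter. *Firre* rescue mice carry the same deletion together with a *Firre* cDNA transgene under a tet-responsive element, tg(*Firre*), and a constitutively expressed reverse tetracycline activator (rtTA), and were fed doxycycline (dox) to induce the transgene. No other group received dox, and no WT or ∆*Firre* library has a number within the range of the *Firre* rescue libraries. Every *Firre* rescue library was also deeper than every other library, with values given below. The transgene, rtTA, dox, sequencing depth, and the range of library numbers thus cannot be told apart.

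Mitochondrial DNA is a small circle that is transcribed from both strands into long precursor RNAs. Transfer RNAs lie between most of the coding sequences, and their excision releases messenger and ribosomal RNAs, most of which then receive short poly(A) tails. All 13 proteins made from these messenger RNAs are subunits of the respiratory chain or of ATP synthase. Their partner subunits, and every protein of the mitochondrial ribosome, are encoded in the nucleus. Doxycycline is a tetracycline antibiotic, and drugs of this class are known to inhibit the mitochondrial ribosome.

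Members were placed on the mitochondrial chromosome (M) by the GRCm38 gene table, the build to which the authors mapped. On the strand that is annotated as forward lie 12 messenger RNA genes, both ribosomal RNA genes, and 14 transfer RNA genes. The messenger RNA gene *mt-Nd6* and 8 transfer RNA genes lie on the reverse strand. Several neighbors overlap. *mt-Atp8* (7766 to 7969) and *mt-Atp6* (7927 to 8607), which encode 2 subunits of ATP synthase and lie on 1 RNA, overlap by 43 bases. The sequence of *mt-Atp8*, the member of the highest level per length, is shown 5′ to 3′ with the bases it shares with *mt-Atp6* in capitals.
mt-Atp8: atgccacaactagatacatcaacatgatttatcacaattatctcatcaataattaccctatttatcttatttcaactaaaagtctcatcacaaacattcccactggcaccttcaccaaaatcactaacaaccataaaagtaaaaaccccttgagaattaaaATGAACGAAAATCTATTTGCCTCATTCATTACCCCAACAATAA

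*mt-Nd5* (11742 to 13565) and *mt-Nd6* (13552 to 14070), subunits of complex I, end against each other on opposite strands and overlap by 14 bases. The last 30 bases of both transcripts are shown with the overlap in capitals, since *mt-Nd5* differed between groups and reads from the overlap of a gene and its antisense partner cannot be assigned without strand.
mt-Nd5: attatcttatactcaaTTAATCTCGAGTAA
mt-Nd6: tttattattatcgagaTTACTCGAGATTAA

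By their annotated ends, 10 of the 13 messenger RNAs have a length of whole codons. Of these 10, *mt-Nd1* and *mt-Nd2* share their last 2 bases with the transfer RNA gene that follows on the same strand. The other 3 of the 13 end 1 base past a codon, at the first base of a stop codon that only the poly(A) tail completes. The last 30 bases of these 3 are shown with that base in capitals, since 2 of them, *mt-Co3* and *mt-Nd4*, had opposite differences between *Firre* rescue and ∆*Firre* CLPs. The transcript sequences were taken by name from GENCODE vM1.
mt-Co3: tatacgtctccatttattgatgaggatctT
mt-Nd4: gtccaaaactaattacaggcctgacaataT
mt-Cytb: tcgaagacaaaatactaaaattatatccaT

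Expression was deposited as TPM, a unit that corrects reads for the length of a gene and brings every library to one total. Whole reads were worked back from the steps between TPM values, and all 376 member values above 0 came to whole reads within 0.05 of a read. For all other genes the length had to be inferred. Recovered reads per library ranged from 10991161 to 18175494 in WT, from 14371822 to 17598259 in ∆*Firre*, and from 25782183 to 32573349 in *Firre* rescue. *Firre* itself lay between 25.2 and 31.6 TPM in WT libraries, was listed at 0 in all 4 ∆*Firre* libraries, and lay between 59.9 and 174 TPM in *Firre* rescue libraries. All 8 CLP markers were detected, and their summed level lay between 5652 and 8444 TPM over the 12 libraries, most of it from *Dntt*. Within that list, *Rag1* was between 277 and 334 TPM in *Firre* rescue and between 141 and 251 TPM in the other libraries. Markers of some other cell types differed between groups. The sum of 4 basophil and mast cell markers was between 63.5 and 136 TPM in *Firre* rescue libraries, against 919 to 8083 TPM in WT and 2669 to 3919 TPM in ∆*Firre* libraries. Of 5 plasma cell markers, *Igj* was between 1.18 and 195 TPM in *Firre* rescue and between 619 and 3110 TPM in the other libraries, whereas *2010001M09Rik* was between 80.8 and 219 TPM against 45.5 to 87.7 TPM, and the summed level was between 299 and 517 TPM against 864 to 3395 TPM. The sum of 5 B cell markers was between 460 and 808 TPM in *Firre* rescue, against 147 to 286 TPM in WT and 205 to 258 TPM in ∆*Firre*, although *Ms4a1* was between 0 and 1.22 TPM against 1.24 to 3.64 TPM elsewhere. Of 4 plasmacytoid dendritic cell markers, *Ly6d* was between 1065 and 1560 TPM in *Firre* rescue and between 457 and 586 TPM elsewhere, while *Siglech* (55.2 to 103 against 81.8 to 123 TPM) and *Irf8* (220 to 340 against 171 to 280 TPM) overlapped. The sum of 4 NK cell markers was between 225 and 273 TPM against 323 to 651 TPM, and that of 5 markers of type 2 innate lymphoid cells between 21.5 and 39.1 TPM against 45.5 to 80.8 TPM, with *Areg* at 0 in all libraries. *Il13* of that list was at 0 in ∆*Firre* and *Firre* rescue. Summed neutrophil markers overlapped, at 122 to 1485 TPM in *Firre* rescue, 269 to 1194 TPM in WT, and 169 to 1477 TPM in ∆*Firre*. Summed eosinophil, erythroid, and T cell markers in *Firre* rescue (6.79 to 191, 14.1 to 96.3, and 0 to 9.66 TPM) also overlapped both other groups. *Cd3e* of the T cell list was at 0 in *Firre* rescue, and no other marker of these lists was at 0 in a whole group. Their part in the differences given below was not tested. In such sorted pools, fewer cells of a type and less RNA per cell cannot be told apart.

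The 13 messenger RNAs together made up 9.94% ± 0.815 (SD, n = 4) of all TPM in WT CLPs, and 2.72% ± 0.214 (SD, n = 4) of the recovered reads. The share of TPM exceeds that of reads because TPM count per length. In ∆*Firre* CLPs the messenger RNAs took 10.6% ± 0.613 of TPM, while *Firre* rescue CLPs had 9.66% ± 2.59 (SD, n = 4 each). Of the recovered reads they took 3.09% ± 0.19 in ∆*Firre* and 2.98% ± 0.815 in *Firre* rescue (SD, n = 4 each). Libraries spanned 2.6 to 3.04% of reads in WT, 2.95 to 3.37% in ∆*Firre*, and 2.33 to 4.13% in *Firre* rescue. By library, the WT values were 9.88, 9.47, 11.1, and 9.29% of TPM for replicates 6, 8, 10, and 11. The ∆*Firre* values were 10.2, 11.5, 10.2, and 10.6% for replicates 8, 9, 11, and 12. The *Firre* rescue values were 10.2, 13.1, 7.72, and 7.61% for replicates 1, 2, 3, and 4. In TPM the group means thus lay close together, whereas *Firre* rescue replicate 2 was above, and replicates 3 and 4 below, every WT and ∆*Firre* library.

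**Figure D1:**
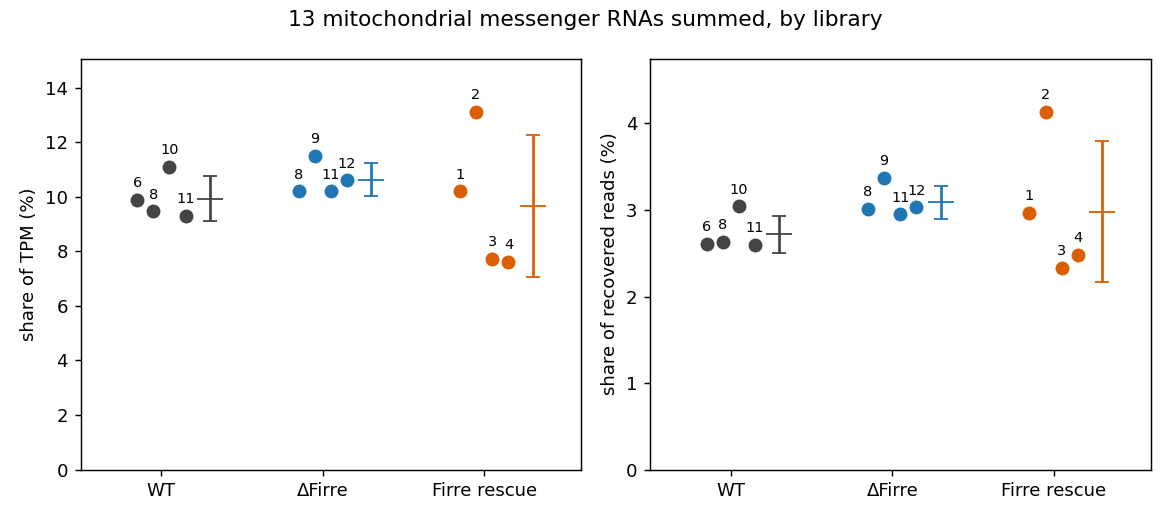
Summed level of the 13 mitochondrial messenger RNAs in each library, as a share of TPM (left) and of recovered reads (right), in percent. Points are libraries with their replicate numbers, and the line and bars beside them are the group mean and SD (n = 4). The *Firre* rescue libraries span 7.61 to 13.1% of TPM, wider than both other groups.

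On the log2 scale, the summed TPM differed by 0.10 between ∆*Firre* and WT and by −0.17 between *Firre* rescue and ∆*Firre*. Between *Firre* rescue and WT it differed by −0.07. In TPM, the only unit compared in this way, each difference was no larger than the pooled SD of the groups compared (0.10, 0.27, and 0.28). Rescaled by the median ratio between libraries, or recomputed without cytosolic ribosomal protein genes, the last of these differences turned to 0.12 and 0.03. Without *Firre* rescue replicate 2, the differences of *Firre* rescue were −0.33 and −0.23, and without replicate 3 they were −0.07 and 0.02. WT and ∆*Firre* libraries share 2 ranges of library numbers, and within these the ∆*Firre* libraries exceeded the WT libraries by 0.12 and 0.07 (2 libraries against 2 in each).

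The spread in *Firre* rescue was shared by most messenger RNAs. The highest library exceeded the lowest 1.75-fold with *Firre* rescue for the median messenger RNA (range 1.38 to 4.96), against 1.31-fold in WT and 1.2-fold in ∆*Firre*. Over all genes with a mean of at least 100 TPM, the median ratio of highest to lowest was 1.32 in *Firre* rescue, 1.26 in WT, and 1.22 in ∆*Firre*. *Firre* rescue replicate 2 was the highest library of its group for 11 of the 13 messenger RNAs, and replicates 3 and 4 were the lowest for 9 and 4. The widest span was that of *mt-Nd3*, a small subunit of complex I, at 760, 1947, 393, and 679 TPM in *Firre* rescue replicates 1 to 4. The span of *Firre* itself had another order, with replicate 4 (174 TPM) and replicate 2 (135 TPM) above replicates 3 (63 TPM) and 1 (59.9 TPM). As a description over the 12 libraries, the deviations of each gene from its group means were correlated with those of the other messenger RNAs summed, with Pearson's r from 0.44 for *mt-Nd6* to 0.97 for *mt-Nd2*. These points share libraries and their scaling.

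The levels of single members differed far more than those of the groups. Over the 12 libraries *mt-Atp8* had the highest mean, 37198 TPM, followed by *mt-Co1*, the catalytic subunit of cytochrome c oxidase, with 18066 TPM, and *mt-Cytb*, the cytochrome b of complex III, with 13715 TPM. The complex I subunits *mt-Nd1*, *mt-Nd5*, *mt-Nd2*, and *mt-Nd4* followed with 8620, 5678, 5497, and 4435 TPM. *mt-Nd5* and *mt-Nd2* overlapped in all 3 groups. *mt-Atp6* had 3444 TPM and *mt-Co3*, a core subunit of cytochrome c oxidase, 2677 TPM. The ribosomal RNAs *mt-Rnr2* (16S) and *mt-Rnr1* (12S), which poly(A) selection captures only in part, had 1928 and 1320 TPM. The lowest were *mt-Nd3* with 685 TPM, *mt-Co2*, the subunit that receives electrons from cytochrome c, with 443 TPM, *mt-Nd4l* with 154 TPM, and *mt-Nd6* with 58.2 TPM. *mt-Atp8* stood about an order of magnitude above *mt-Atp6*, although both lie on 1 RNA. The ratio of their TPM was 13.3 ± 3.5 in WT, 11.1 ± 0.685 in ∆*Firre*, and 8.67 ± 1.38 among *Firre* rescue mice (SD, n = 4 each).

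**Figure D2:**
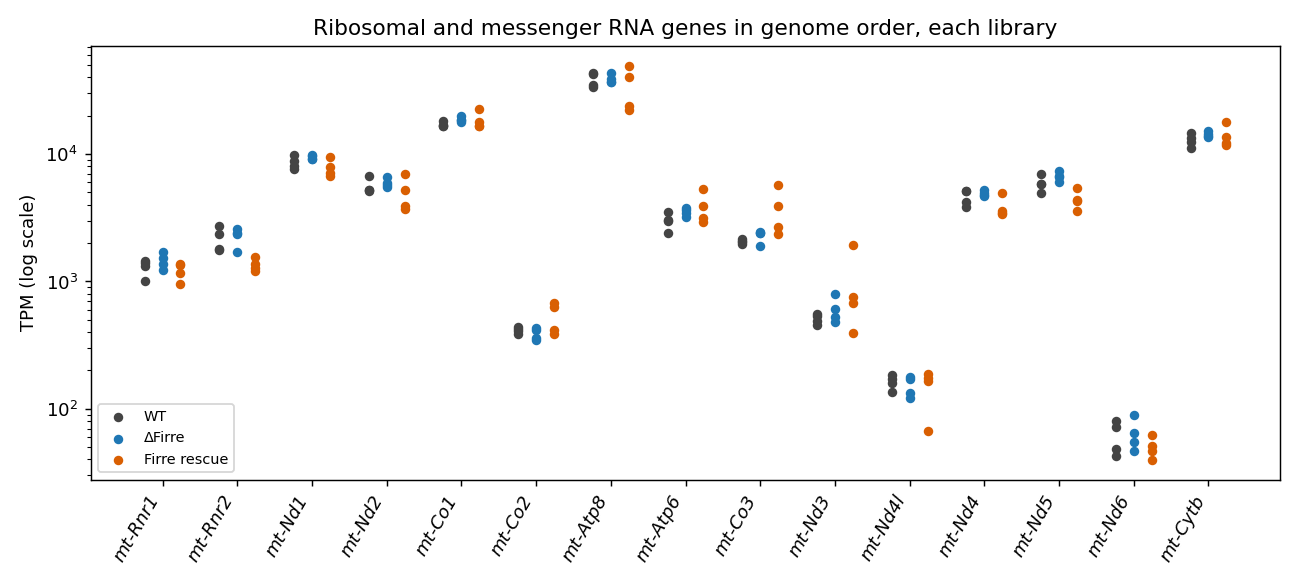
TPM (log scale) of the 2 ribosomal and 13 messenger RNA genes in the order of the mitochondrial genome, with 1 point per library and the 3 groups side by side. The genes range from 58.2 TPM (*mt-Nd6*) to 37198 TPM (*mt-Atp8*) on average, while groups of 1 gene mostly overlap.

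A part of the mitochondrial genome also occurs in the nuclear genome, as copies that were inserted into chromosomes. Of the 16268 windows of 32 bases in the mitochondrial genome, 40.7% had an exact copy in the nuclear chromosomes of an older mouse genome (NCBIM37), and 4611 windows had one on chromosome 1. Read pairs are longer than these windows, and the build used for mapping may differ. The share of windows with a copy was 100% for *mt-Co2*, *mt-Atp8*, *mt-Atp6*, *mt-Co3*, and *mt-Nd4l*, and 99.1% for *mt-Nd3*. It was 62.9% for *mt-Co1* and 62.8% for *mt-Nd4*. It was 16.3% for *mt-Nd5*, 13% for *mt-Nd2*, 12.3% for *mt-Rnr2*, 6.35% for *mt-Nd6*, and 5.75% for *mt-Cytb*, and 0 for *mt-Rnr1* and *mt-Nd1*. How the authors treated reads that map to more than 1 place is not given in the sources used here. Of 7 symbols of nuclear copies looked up, only *Gm10222* was matched, at 0 to 18.6 TPM in WT, 4.53 to 17.6 TPM in ∆*Firre*, and 0.643 to 22 TPM in *Firre* rescue libraries.

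The comparison of ∆*Firre* with WT asked whether loss of the locus went with a change in the mitochondrial RNAs. Of the 14479 genes tested with limma, 3 (0.0207%) were called at an adjusted p (Benjamini-Hochberg) no higher than 0.1, and 0 of the 37 members were among them. At an unadjusted limma p under 0.05 were 767 genes (5.3%) and 1 member, the transfer RNA gene *mt-Ts2* with a difference of −2.96 (SE 0.99, limma adjusted p = 0.889). With limma-voom on the recovered reads 0 genes of any kind passed, with 377 at an unadjusted p under 0.05. The deleted gene *Firre*, called in the main fit (−4.87, SE 0.30, limma adjusted p = 9.28e-06), was thus missed by limma-voom. That alternative therefore says little about the members. The authors, with DESeq2 on counts, reported more genes for this comparison than the main fit called. The groups overlapped for every member, whereas they were apart for 5.33% of all genes tested.

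The differences of log2(TPM + 1) between ∆*Firre* and WT lay between −0.11 (*mt-Nd4l*, 95% interval −0.69 to 0.48) and 0.25 (*mt-Atp6*, −0.11 to 0.61) for the 13 messenger RNAs. The difference was above 0 for 11 of the 13, with a median of 0.13, beside a median of −0.06 over all genes tested. For *mt-Co1* it was 0.13 with an interval of −0.12 to 0.38, the narrowest of the messenger RNAs, and for *mt-Nd3* 0.21 with an interval of −0.56 to 0.98, the widest. *mt-Rnr1* differed by 0.18 (−0.14 to 0.49) and *mt-Rnr2* by 0.08 (−0.28 to 0.43). A change of 2-fold in either direction thus lay outside the interval for each of the 13 messenger and 2 ribosomal RNAs. Under quantile normalization the differences of *mt-Co1* and *mt-Cytb* turned to −0.33 and −0.24, and neither was called.

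Between *Firre* rescue and ∆*Firre* CLPs, mitochondrial genes were called in both directions. Whether members differed from each other was not tested. *mt-Rnr2*, *mt-Nd5*, *mt-Nd4*, and the transfer RNA genes *mt-Tl1* and *mt-Ti* fell, and *mt-Co3*, *mt-Co2*, and the transfer RNA gene *mt-Tn* rose. These 8 of 37 members (21.6%) were called with limma, beside 27.9% of all genes tested. By direction, 3 members (8.11%) were higher in *Firre* rescue, beside 8.58% of all genes, and 5 (13.5%) were lower, beside 19.3%. The groups did not overlap for 4 members (10.8%), beside 21.9% of all genes. The share of members called was therefore no higher than that of genes at large. All genes tested had a median difference of −0.16, which is −0.05 after rescaling by the median ratio. That rescaling called 6 members, 3 higher and 3 lower, and turned the share of higher calls over all genes from 30.7% to 50.5%. The mitochondrial messenger RNAs had a median of −0.11, or 0.01 after rescaling.

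Between *Firre* rescue and WT CLPs, *mt-Rnr2*, *mt-Nd5*, *mt-Tl1*, and *mt-Ts2* fell and *mt-Co3* rose. These 5 of 37 members (13.5%) compare with 24.3% of all genes tested. One member (2.7%) was called higher, beside 4.82% of all genes, and 4 (10.8%) lower, beside 19.4%. The groups did not overlap for 3 members (8.11%), beside 18% of all genes. All genes had a median of −0.21, which the rescaling turned to −0.03. Under it 2 members were called, *mt-Co3* higher and *mt-Tl1* lower, and the share of higher calls over all genes turned from 19.9% to 51.3%. Both comparisons share the *Firre* rescue libraries, so that their calls are not independent.

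**Figure D3:**
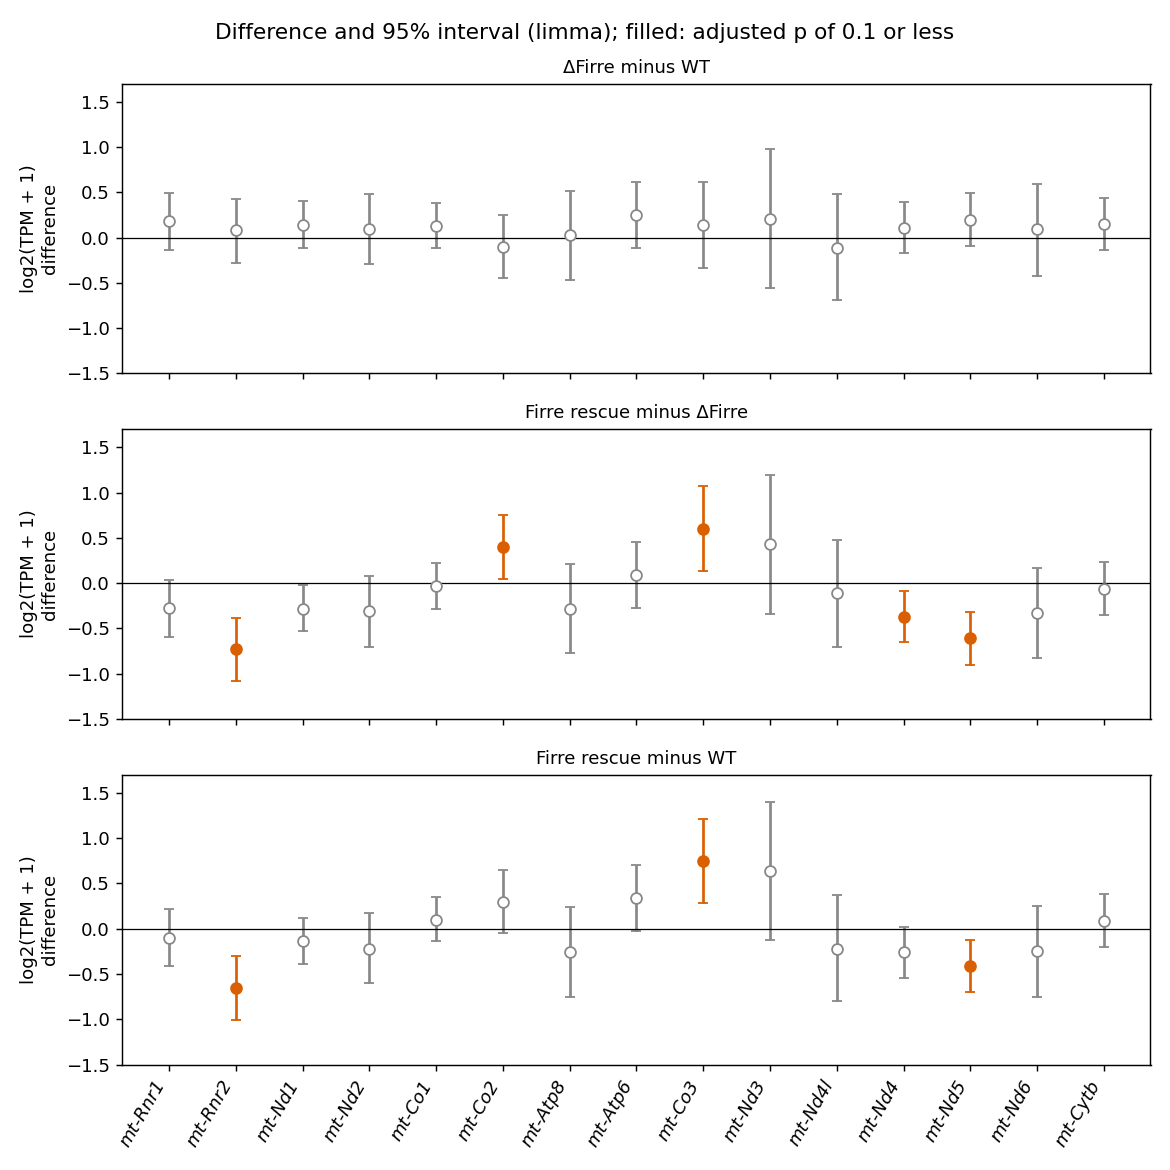
Difference of log2(TPM + 1) with its 95% interval (limma) for the 2 ribosomal and 13 messenger RNAs in genome order, in the 3 comparisons. Filled orange points passed an adjusted p of 0.1, which none did between ∆*Firre* and WT, and open grey points did not. *mt-Rnr2* and *mt-Nd5* lie below 0 and *mt-Co3* above 0 in both comparisons of *Firre* rescue.

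The ribosomal RNA *mt-Rnr2* (1094 to 2675), the 16S RNA of the large mitochondrial ribosomal subunit, was lower in *Firre* rescue than in both other groups. It was at 1790, 1769, 2734, and 2351 TPM in WT replicates 6, 8, 10, and 11. In ∆*Firre* replicates 8, 9, 11, and 12 it was at 1694.2, 2417, 2578, and 2377 TPM. In *Firre* rescue replicates 1 to 4 it was at 1377, 1567, 1214, and 1267 TPM. Every *Firre* rescue library was thus below every other library. The difference was −0.73 against ∆*Firre* (SE 0.16, limma adjusted p = 0.00966) and −0.65 against WT (SE 0.16, limma adjusted p = 0.0179). Both calls held with each library left out in turn, but that against WT was lost after rescaling by the median ratio (−0.46, limma adjusted p = 0.13).

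*mt-Rnr1* (70 to 1024), the 12S RNA of the small subunit, is transcribed on the same precursor just ahead of *mt-Rnr2*. Its level was 1292 ± 194 TPM in WT, 1457 ± 199 in ∆*Firre*, and 1210 ± 197 TPM among *Firre* rescue mice (SD, n = 4 each). *Firre* rescue differed by −0.27 from ∆*Firre* (SE 0.15, limma adjusted p = 0.208), and its difference from WT was −0.10 (SE 0.15, limma adjusted p = 0.685). Under quantile normalization it was called lower than in ∆*Firre* (−0.53, limma adjusted p = 0.0301). The ratio of *mt-Rnr2* to *mt-Rnr1* within a library, which no scaling of libraries can move, was 1.68 ± 0.267 in WT, 1.58 ± 0.385 in ∆*Firre*, and 1.13 ± 0.115 among *Firre* rescue mice. The *Firre* rescue libraries spanned 1.01 to 1.28, just below WT (1.29 to 1.89), and overlapped ∆*Firre* (1.12 to 1.93). This and the other ratios were chosen after the values were seen, and are given with no test.

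Among the 7 complex I subunits, *mt-Nd5* was the only one called in both comparisons of *Firre* rescue. It was at 5874, 4917, 6946, and 5784 TPM in WT replicates 6, 8, 10, and 11, at 6054, 7356, 6644, and 6790 TPM in ∆*Firre* replicates 8, 9, 11, and 12, and at 4395, 5462, 4310, and 3600 TPM in *Firre* rescue replicates 1 to 4. *Firre* rescue lay below ∆*Firre* throughout and overlapped WT through replicate 2. The difference was −0.61 against ∆*Firre* (SE 0.13, limma adjusted p = 0.00917), a call that held with each library left out. Against WT it was −0.41 (SE 0.13, limma adjusted p = 0.0546), a call that was lost without WT replicate 10 (limma adjusted p = 0.149), WT replicate 11 (0.104), or *Firre* rescue replicate 4 (0.145), after rescaling by the median ratio, and with limma-voom. Relative to *mt-Cytb*, the next messenger RNA gene on its strand, *mt-Nd5* was at 0.457 ± 0.0666 in WT, 0.469 ± 0.0152 in ∆*Firre*, and 0.322 ± 0.0298 among *Firre* rescue mice (SD, n = 4 each). By library that ratio was between 0.294 and 0.363 in *Firre* rescue and between 0.364 and 0.523 in WT.

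*mt-Nd4* (10167 to 11544) had 4568 ± 644 TPM in WT, 4899 ± 228 in ∆*Firre*, and 3837 ± 720 TPM among *Firre* rescue mice (SD, n = 4 each). *Firre* rescue replicate 2, at 4909 TPM, lay within the range of ∆*Firre*, and replicates 1, 3, and 4, at 3594, 3445, and 3399 TPM, below it. The difference from ∆*Firre* was −0.37 (SE 0.13, limma adjusted p = 0.0669). This call was lost without ∆*Firre* replicate 8, 9, 11, or 12 or *Firre* rescue replicate 1, 3, or 4 (limma adjusted p from 0.105 to 0.163). It was kept under 7 of 13 other settings. The call was lost with the median ratio, no filter, no trend, the replicate block, limma-voom, or without ribosomal protein genes.

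The other complex I subunits were not called in either comparison with the main scaling. In *mt-Nd1*, *Firre* rescue differed by −0.28 from ∆*Firre* (limma adjusted p = 0.116), a difference that was called among genes of at least 5 TPM and without immunoglobulin genes. *mt-Nd2* differed by −0.31 (limma adjusted p = 0.246). Under quantile normalization *mt-Nd2* was called lower than in ∆*Firre* (−0.51, limma adjusted p = 0.0311) and WT (−0.48, limma adjusted p = 0.0531), and *mt-Nd4* lower than in WT (−0.60, limma adjusted p = 0.00705). *mt-Nd6*, the only messenger RNA of the reverse strand, had a level of 60.6 ± 18 TPM in WT, 64.1 ± 18.5 in ∆*Firre*, and 49.9 ± 9.48 TPM among *Firre* rescue mice (SD, n = 4 each), with 78 to 297 reads per library. *mt-Nd4l* differed by −0.11 and *mt-Nd3* by 0.43, with intervals of −0.70 to 0.48 and −0.34 to 1.19. The strand setting of the authors' counting is not given in the sources used here, so that reads of *mt-Nd6* cannot be told apart from antisense reads of the other strand.

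*mt-Co3* (8607 to 9390), a subunit of complex IV, was higher in *Firre* rescue. Its levels were 1971, 2148, 2079, and 2056 TPM in WT replicates 6, 8, 10, and 11. They were 2413, 2389, 1903, and 2448 TPM in ∆*Firre* replicates 8, 9, 11, and 12, and 3945, 5724, 2370, and 2671 TPM in *Firre* rescue replicates 1 to 4. All *Firre* rescue libraries exceeded all WT libraries, and replicate 3 lay within ∆*Firre*. The difference from WT was 0.75 (SE 0.22, limma adjusted p = 0.0347), a call that held with each library left out and was lost under 3 of 13 other settings, quantile normalization (0.41) among them. The difference from ∆*Firre* was 0.60 (SE 0.22, limma adjusted p = 0.0699), a call that was lost without ∆*Firre* replicate 8, 9, 11, or 12 or *Firre* rescue replicate 1 or 2 (limma adjusted p from 0.107 to 0.169), and under 5 of the 13 settings, with quantile normalization at 0.28. Without *Firre* rescue replicate 2 the difference from ∆*Firre* was 0.36.

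Within libraries, *mt-Co3* was at 0.121 ± 0.00754 of the level of *mt-Co1* in WT, 0.122 ± 0.0117 in ∆*Firre*, and 0.194 ± 0.0512 among *Firre* rescue mice (SD, n = 4 each). The lowest *Firre* rescue ratio, 0.143, was above the highest of the other libraries, 0.132. *mt-Co1* itself, a subunit of the same complex, had a level of 17053 ± 858 TPM in WT, 18686 ± 865 in ∆*Firre*, and 18459 ± 2919 TPM among *Firre* rescue mice. It differed by −0.03 between *Firre* rescue and ∆*Firre* (95% interval −0.28 to 0.22), and that difference was above 0 after rescaling by the median ratio (0.09), without ribosomal protein genes (0.08), with limma-voom (0.04), and under quantile normalization (0.33, limma adjusted p = 0.0439).

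*mt-Co2* (7013 to 7696) was at 389, 436, 422, and 412 TPM in WT replicates 6, 8, 10, and 11, at 346, 415, 434, and 358 TPM in ∆*Firre* replicates 8, 9, 11, and 12, and at 629, 673, 385, and 418 TPM in *Firre* rescue replicates 1 to 4. Replicates 1 and 2 of *Firre* rescue stood above every other library, while replicates 3 and 4 lay within the ∆*Firre* range. The difference from ∆*Firre* was 0.40 (SE 0.16, limma adjusted p = 0.099), just under the threshold. It remained called only without *Firre* rescue replicate 3 or 4, and the adjusted p lay between 0.11 and 0.236 without WT replicate 6, 8, 10, or 11, ∆*Firre* replicate 8, 9, 11, or 12, or *Firre* rescue replicate 1 or 2. The call was also lost under 8 of 13 other settings, and kept after rescaling by the median ratio (0.52, limma adjusted p = 0.0841). Without *Firre* rescue replicate 2 the difference was 0.27. Against WT it was 0.30 (SE 0.16, limma adjusted p = 0.223).

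The ATP synthase subunits were not called on this scale. *mt-Atp8* was at 40034, 49556, 23940, and 22325 TPM in *Firre* rescue replicates 1 to 4, against 33872 to 43197 TPM in WT and 36927 to 43434 TPM in ∆*Firre*. Replicate 2 was above and replicates 3 and 4 below both ranges, and the difference from ∆*Firre* was −0.28 (95% interval −0.77 to 0.21). *mt-Atp6* was at 3912, 5331, 2946, and 3176 TPM in the same libraries, with a difference of 0.09 (95% interval −0.27 to 0.46) from ∆*Firre* and 0.34 (−0.02 to 0.70) from WT. *mt-Cytb*, the member of complex III, differed by −0.06 (−0.35 to 0.23) from ∆*Firre* and by 0.09 (−0.20 to 0.38) from WT. Under quantile normalization *mt-Atp6* was called lower (−0.37, limma adjusted p = 0.0803) and *mt-Cytb* higher (0.32, limma adjusted p = 0.0227) than in ∆*Firre*, each opposite in sign.

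Several further members were called when 1 *Firre* rescue library was left out, some of them also under another setting. Without replicate 2, which was the highest for most messenger RNAs, 3 complex I subunits were called lower. These were *mt-Nd1* (−0.38, limma adjusted p = 0.0347) and *mt-Nd2* (−0.49, limma adjusted p = 0.0356) against ∆*Firre*, and *mt-Nd2* (−0.40, limma adjusted p = 0.0887) and *mt-Nd4* (−0.38, limma adjusted p = 0.043) against WT. Without replicate 3, which was the lowest for most, *mt-Nd3* was called higher against ∆*Firre* (0.76, limma adjusted p = 0.0992) and WT (0.97, limma adjusted p = 0.045), and *mt-Co2* (0.44, limma adjusted p = 0.0584) and *mt-Atp6* (0.46, limma adjusted p = 0.0794) were called higher against WT. The count of members called against WT was 8 in each of these fits, with 7 lower without replicate 2 and 5 higher without replicate 3.

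Differences were set beside the share of nuclear copies, with a median over all genes of −0.16 against ∆*Firre* and −0.21 against WT. Of the 7 messenger and ribosomal RNAs under 20% of windows with a copy, all 7 had a negative difference between *Firre* rescue and ∆*Firre* (median −0.31), and 6 of the 7 after rescaling by the median ratio (median −0.19). Of the 6 over 90%, 4 had a positive difference (median 0.24), and 5 after rescaling (median 0.36). Both messenger RNAs called higher, *mt-Co3* and *mt-Co2*, had copies for 100% of their windows, and the messenger and ribosomal RNAs called lower had 12.3% (*mt-Rnr2*), 16.3% (*mt-Nd5*), and 62.8% (*mt-Nd4*). Against WT, 6 of the 7 under 20% had a negative difference (median −0.22), but 4 after rescaling (median −0.02), and 4 of the 6 over 90% had a positive one (median 0.32, or 0.51 after rescaling). *mt-Atp8* and *mt-Nd4l*, with copies for 100%, lay below 0 in both comparisons. For *Gm10222*, *Firre* rescue differed by −0.78 from ∆*Firre* (limma adjusted p = 0.585) and by −0.30 from WT (limma adjusted p = 0.855). These classes were drawn after the values were seen, neighbors share precursor RNA, and the part of nuclear copies in the differences was not tested.

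**Figure D4:**
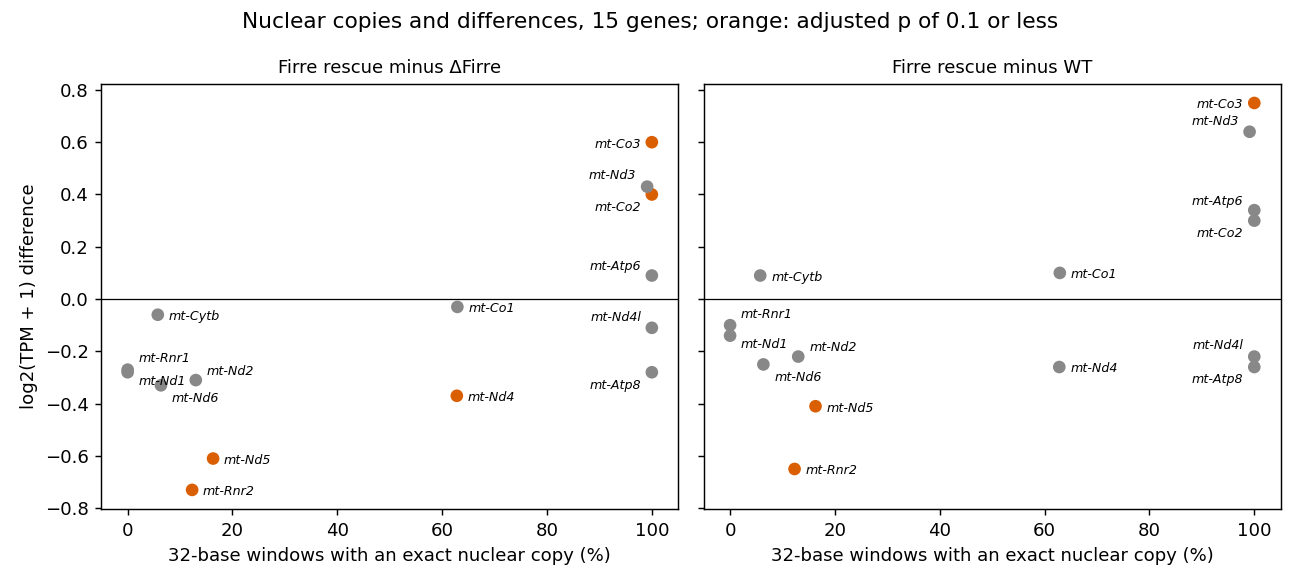
Difference of log2(TPM + 1) between *Firre* rescue and ∆*Firre* (left) or WT (right) against the share of 32-base windows of the gene with an exact copy in nuclear chromosomes of NCBIM37 (percent). Each point is 1 of 15 genes, and orange points passed an adjusted p of 0.1. All genes under 20% lie below 0 on the left, and *mt-Co3* and *mt-Co2*, at 100%, lie above 0.

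Transfer RNA genes hold few reads in poly(A)+ libraries, since mature transfer RNAs carry no poly(A) tail and are shorter than a sequenced fragment. All 22 together had between 456 and 2069 reads per library and between 966 and 3350 TPM. *mt-Tm*, the methionine transfer RNA between *mt-Tq* and *mt-Nd2*, was the highest, with a mean of 1041 TPM and 128 to 1220 reads per library. The lowest, *mt-Tl2*, was above 0 in 3 libraries, with 1, 1, and 6 reads. At the lowest depth a single read corresponds to 0.284 TPM for 1 kb of gene length, and read numbers show counting error only, while limma intervals rest on the spread between mice.

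*mt-Tl1* (2676 to 2750), the leucine transfer RNA that lies directly between *mt-Rnr2* and *mt-Nd1*, was lower in *Firre* rescue than in both other groups. It was at 95.4, 87.2, 137, and 66.7 TPM in WT replicates 6, 8, 10, and 11, at 65.6, 167, 179, and 83.3 TPM in ∆*Firre* replicates 8, 9, 11, and 12, and at 36.5, 49, 5.04, and 19.8 TPM in *Firre* rescue replicates 1 to 4. These values rest on 4 to 75 reads per library, and *Firre* rescue lay below every other library. The difference was −2.37 against ∆*Firre* (SE 0.55, limma adjusted p = 0.012) and −2.10 against WT (SE 0.55, limma adjusted p = 0.0227). Both calls held with each library left out and under all 13 other settings tried at this threshold.

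*mt-Ti*, the isoleucine transfer RNA that follows *mt-Nd1*, was at 228, 135, 35.6, and 169 TPM in *Firre* rescue replicates 1 to 4, below the 237 to 288 TPM of ∆*Firre* and overlapping the 149 to 272 TPM of WT. The difference from ∆*Firre* was −1.20 (SE 0.43, limma adjusted p = 0.0696), a call that was lost without any single ∆*Firre* replicate, 8, 9, 11, or 12 (limma adjusted p from 0.113 to 0.134). It was kept under 7 of 13 other settings. The call was lost with the median ratio, no filter, no trend, only the groups compared, the replicate block, or without ribosomal protein genes. Without *Firre* rescue replicate 3 the call held, and the difference was −0.64.

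*mt-Tn*, the asparagine transfer RNA of the reverse strand, had 24, 65, 1, and 16 reads in *Firre* rescue replicates 1 to 4, 2 reads in ∆*Firre* replicate 8, and 0 in the other 3 ∆*Firre* libraries. WT replicates 6, 8, 10, and 11 had 2, 5, 10, and 0 reads. The fitted difference from ∆*Firre* was 3.68 (SE 1.18, limma adjusted p = 0.0457), a value that depends on the pseudocount because most ∆*Firre* libraries are at 0. The call was lost without ∆*Firre* replicate 9, 11, or 12 or *Firre* rescue replicate 1 or 2 (limma adjusted p from 0.102 to 0.114), with no filter, and with limma-voom, and the difference ranged from 2.24 to 6.02 over all settings. *mt-Ts2* had 1, 6, 22, and 3 reads in these WT libraries, 0, 1, 2, and 0 in ∆*Firre*, and 1, 8, 0, and 0 in *Firre* rescue. Its difference between *Firre* rescue and WT was −2.87 (SE 0.99, limma adjusted p = 0.0668). That call was lost without WT replicate 8, 10, or 11 or *Firre* rescue replicate 1, 3, or 4 (limma adjusted p from 0.102 to 0.182), and under 6 of 13 other settings, the median ratio and limma-voom among them, with differences from −4.57 to −1.69. Some transfer RNA calls appeared without 1 library, among them *mt-Td* lower than in WT without WT replicate 6 (−1.34, limma adjusted p = 0.0414) or *Firre* rescue replicate 2 (−1.30, limma adjusted p = 0.0565), and *mt-Ti* lower than in WT without *Firre* rescue replicate 1 (−1.19, limma adjusted p = 0.082). Without *Firre* rescue replicate 3, *mt-Ts1* was called higher than in WT (3.18, limma adjusted p = 0.0853). That fit also called *mt-Tf* higher (1.92, limma adjusted p = 0.0868) and *mt-Tw* lower (−3.12, limma adjusted p = 0.0948) than in ∆*Firre*. *mt-Tf* was also called without *Firre* rescue replicate 2 (1.92, limma adjusted p = 0.0985), and *mt-Ta* without WT replicate 10 (2.43, limma adjusted p = 0.0759).

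Nuclear partners of these genes are set beside them, and the difference between nuclear and mitochondrial genes was not tested. Counts of higher genes in the lists that follow stand beside 8.58% of all genes against ∆*Firre* and 4.82% against WT, or 1901 and 1311 of 14440 genes after rescaling by the median ratio. Nuclear subunits of the respiratory chain were called almost only higher in *Firre* rescue, with *Sdha* of complex II as the exception, while 2 mitochondrial messenger RNAs were called higher and 2 lower than in ∆*Firre*. Of 36 nuclear complex I subunits, 21 were called higher and 0 lower in *Firre* rescue than in ∆*Firre*, with a median of 0.54, beside a median of −0.16 over all genes. *Ndufb7*, *Ndufb6*, and *Ndufa2* had the largest differences, 1.07, 1.06, and 0.96 (limma adjusted p = 0.00531, 6.03e-05, and 0.00909). Their mitochondrial partners in complex I numbered 7, with 0 called higher and 2 lower. Against WT, 16 of the 36 were higher and 0 lower (median 0.34).

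Of 9 nuclear complex III subunits, 6 were called higher than in ∆*Firre* (median 0.37) and 7 higher than in WT (median 0.47), and none lower. *Uqcr11* rose from 103 TPM in WT and 98.9 TPM in ∆*Firre* to 255 TPM in *Firre* rescue (group means), with a difference of 1.34 from ∆*Firre* (SE 0.22, limma adjusted p = 0.00166). Of 11 nuclear complex IV subunits, 8 were called higher and 0 lower in either comparison (medians 0.48 and 0.46). *Cox4i1*, a nuclear subunit of the enzyme that *mt-Co1*, *mt-Co2*, and *mt-Co3* belong to, differed by 0.90 from ∆*Firre* (SE 0.10, limma adjusted p = 0.000205). Of 16 ATP synthase subunits, 10 were called higher than in ∆*Firre* (median 0.46) and 8 higher than in WT (median 0.42), among them *Atp5d* and *Atp5l* with 0.83 and 0.80 against ∆*Firre*. Complex II has no mitochondrially encoded subunit. Of its 4 genes, *Sdhb* rose by 0.46 and *Sdha* fell by 0.24 against ∆*Firre*, and the latter was not called after rescaling by the median ratio. With that rescaling, 22 complex I, 6 complex III, 8 complex IV, and 11 complex V subunits were called higher than in ∆*Firre*.

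The list of mitochondrial ribosomal protein genes had 75 genes tested, the pseudogene *Mrpl23-ps1* included. Of these, 17 were called higher and 0 lower in *Firre* rescue than in ∆*Firre* (median 0.17), and 11 higher and 0 lower than in WT (median 0.04). *Mrpl54* and *Mrpl34* had the largest differences from ∆*Firre*, 1.10 and 1.07. Both are proteins of the large subunit, which is built on the RNA of *mt-Rnr2*. After rescaling by the median ratio, 24 and 22 were called higher and 0 lower. Between ∆*Firre* and WT, 0 genes of any of these lists were called.

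Few of the factors that replicate, transcribe, and process mitochondrial DNA and RNA were called, and the counts of lower genes are to be read beside the 19.3% and 19.4% of all genes that were lower than in ∆*Firre* and WT. Of 19 genes of replication and transcription, 1 was called in either comparison, *Dna2*, a helicase and nuclease, lower by 0.33 and 0.46 on the log2 scale than in ∆*Firre* and WT, a call that was lost after rescaling by the median ratio. That rescaling called *Polrmt*, the mitochondrial RNA polymerase, higher than in ∆*Firre* (0.62, limma adjusted p = 0.062). Of 20 genes of RNA processing, stability, and decay, 3 were called lower than in ∆*Firre*. These were *1110008L16Rik*, the polynucleotide phosphorylase gene *Pnpt1*, and *Grsf1*, an RNA-binding protein of mitochondrial RNA granules, with differences of −0.55, −0.41, and −0.35, and after rescaling 1 of the list was called higher and 1 lower. Of 14 translation factor genes, 3 were lower than in ∆*Firre*, with *Mtif2*, the initiation factor, at −0.56 (limma adjusted p = 0.00366), and 4 were lower than in WT, or 2 and 1 after rescaling.

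Of 22 mitochondrial transfer RNA synthetase genes, 2 were called higher than in ∆*Firre*, *Vars2* (0.91) and *Lars2* (0.64), and 3 lower, among them *Mars2* (−0.62) and *Hars2* (−0.49). Both counts are near or under the shares over all genes (8.58% higher, 19.3% lower). After rescaling by the median ratio 5 were called higher and 1 lower, so that the scaling sets the balance of this list, and *Mars2* was not called (limma adjusted p = 0.114). *Lars2*, which charges the transfer RNAs of *mt-Tl1* and *mt-Tl2* with leucine, also rose against WT, by 0.72 (SE 0.20, limma adjusted p = 0.0288). Of 20 RNA modification genes, 2 were higher and 1 lower than in ∆*Firre*. Of 15 chaperone and protease genes, *Clpp*, *Hspe1*, and *Phb2* were higher (0.56, 0.39, and 0.30) and *Yme1l1*, a protease of the inner membrane, lower (−0.44) than in ∆*Firre*, while against WT 0 were higher and 4 lower, or 4 higher and 1 lower after rescaling. The scaling thus sets the direction in which this list is counted against WT.

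**Figure D5:**
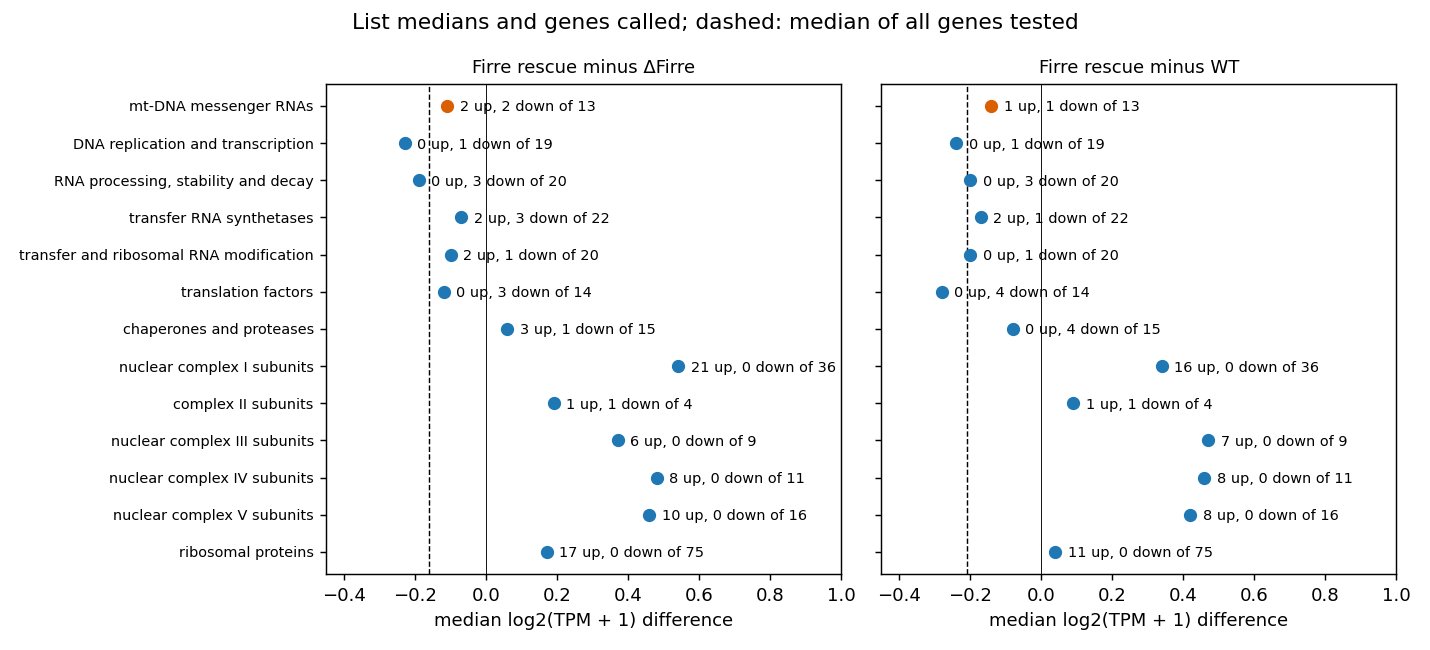
Median difference of log2(TPM + 1) for the 13 mitochondrially encoded messenger RNAs (orange) and for lists of nuclear genes with mitochondrial roles (blue), between *Firre* rescue and ∆*Firre* (left) or WT (right). Labels give the genes called higher and lower of those tested, and the dashed line is the median of all genes (−0.16 and −0.21). The nuclear subunits of complexes I, III, IV, and V lie between 0.34 and 0.54, and the mitochondrially encoded messenger RNAs at −0.11 and −0.14.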

How the data were processed

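CLP RNA-seq libraries from 12 mice were analysed. The authors trimmed the paired-end reads with cutadapt, mapped them to mm10 with TopHat2 2.1.1, and counted them with featureCounts, per the labels and the study's methods. The authors deposited TPM for 47643 genes, and this TPM table was used as deposited. Strand, multi-mapping settings, and the gene lengths behind TPM are not given in the sources used here. Symbols came from a gene table joined by identifier (32799 genes). One mouse gave 1 library, and groups were taken from the sample titles.

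The 14479 genes with a mean of at least 1 TPM, all 37 members included, were fitted as log2(TPM + 1) with limma 3.58.1 in R 4.3.3, with a mean-variance trend and the 3 groups in one fit. Differences on this scale understate those of low genes. Two-sided p-values received the Benjamini-Hochberg adjustment over all genes tested, and 0.1 was the threshold. The fit was tested on simulated data. Reads were recovered from the spacing of TPM, for read numbers, depth, shares of reads, and limma-voom only. Gene lengths were known for the members. Every other gene was given the smallest length that made its values whole reads. Depth, shares of reads, and limma-voom thus rest on inferred lengths.

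All ribosomal and messenger RNA members are named. Transfer RNA genes were to be named at a mean of at least 1 TPM, which all 22 reach, but not all of those not called are named. Differences over the 22 ranged from −2.96 to 1.38 between ∆*Firre* and WT. For *Firre* rescue they ranged from −2.37 to 3.68 against ∆*Firre* and from −2.87 to 2.51 against WT. Other genes come from lists, with at most 3 rises and 3 falls each. One gene of these lists is not reported here by name. The members, lists, and markers were chosen with earlier results of these data known. Alternatives were pseudocounts of 0.1 and 5, no filter, a minimum mean of 5 TPM, median-ratio, quantile, and nuclear-total scaling, removal of ribosomal protein or immunoglobulin genes, only the groups compared, no trend, an adjusted p of 0.05, blocks, each library left out, and limma-voom. Python 3.11.15 was used for summaries.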

Additional observations from a re-analysis of the deposited data

Results flagged for a closer look

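In 114 sets of 4 libraries (each of the 37 members, and the summed messenger RNAs, in each group), 14 held 1 library whose gap to its nearest neighbor, as a share of the whole range, exceeded Dixon's 95% critical value. Chance flags about 1 set in 20, but a set with 3 libraries at 0 and 1 above is flagged by construction, so that this share does not apply to those. All values are log2(TPM + 1).

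Of messenger RNAs, *mt-Nd2* was at 12.72 in WT replicate 10 (others 12.34 to 12.35). *mt-Co3* was at 10.90 in ∆*Firre* replicate 11 (others 11.22 to 11.26). *mt-Nd4* was at 12.26 in *Firre* rescue replicate 2 (others 11.73 to 11.81), and *mt-Nd4l* at 6.08 in *Firre* rescue replicate 3 (others 7.38 to 7.55).

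Of transfer RNA genes, *mt-Ti* was at 7.89 and *mt-Tq* at 5.84 in ∆*Firre* replicate 9 (others 8.13 to 8.18 and 5.03 to 5.10). *mt-Tc* was at 0.00 in ∆*Firre* replicate 12 (others 5.14 to 5.69) and at 5.05 in *Firre* rescue replicate 4 (others 6.67 to 6.97). *mt-Tr* was at 0.00 in ∆*Firre* replicate 12 (others 1.79 to 2.01). In the remaining sets, the other 3 libraries were at 0. These were *mt-Tf* at 2.03 and *mt-Th* at 3.76 in WT replicate 6, *mt-Ts1* at 3.74 in WT replicate 10, *mt-Tn* at 2.76 in ∆*Firre* replicate 8, and *mt-Tl2* at 3.36 in *Firre* rescue replicate 1. Several rest on 1 to 6 reads.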

How the results depend on the processing

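Members called between ∆*Firre* and WT numbered 0 under every alternative, the block on the library number ranges included. Of these alternatives, limma-voom also missed *Firre* itself. Between *Firre* rescue and ∆*Firre*, 8 members were called, against 3 with no filter, 5 with only the groups compared, 4 with no trend, 4 at an adjusted p of 0.05, and 3 to 10 with 1 library left out. Between *Firre* rescue and WT, 5 were called, against 3 with no filter, 2 with the median ratio, 2 with only the groups compared, 3 with limma-voom, 3 at an adjusted p of 0.05, and 3 to 8 with 1 library left out. Over all genes, the 3 calls between ∆*Firre* and WT became 6 with no filter, 1 with only the groups compared, 0 with limma-voom, and 1 to 5 with 1 library left out. The 4043 calls between *Firre* rescue and ∆*Firre* became 2682 at an adjusted p of 0.05. The 3512 calls between *Firre* rescue and WT became 2263 with only the groups compared. The cause was not tested. The share of the mitochondrial genes was 2.88% ± 0.235, 3.26% ± 0.201, and 3.1% ± 0.84 of reads in WT, ∆*Firre*, and *Firre* rescue (SD, n = 4 each). Of TPM it was 10.5% ± 0.951, 11.2% ± 0.688, and 10.1% ± 2.71, since TPM count per length.

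Mouse numbers 8 and 11 occur in both WT and ∆*Firre*. The deviations of same-numbered libraries had correlations of −0.0328 and −0.0411, so that the number was not taken as a pairing. With the replicate block 0, 6, and 3 members and 2113 genes between *Firre* rescue and WT were called. Against ∆*Firre* it lost the calls of *mt-Ti*, *mt-Co2*, *mt-Co3*, and *mt-Nd4*. It gained *mt-Ta* (3.67, limma adjusted p = 0.0626) and *mt-Ty* (−2.61, limma adjusted p = 0.0789). Against WT it lost those of *mt-Co3* and *mt-Ts2*.

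Signs that turned are given as log2 differences for the ribosomal and messenger RNAs and the called transfer RNAs. With the median ratio, *mt-Co1*, *mt-Nd4l*, and *mt-Cytb* were at 0.09, 0.01, and 0.06 between *Firre* rescue and ∆*Firre*, and *mt-Rnr1* and *mt-Nd1* at 0.10 and 0.06 between *Firre* rescue and WT. Without ribosomal protein genes, *mt-Co1* and *mt-Cytb* were at 0.08 and 0.05 against ∆*Firre* and *mt-Rnr1* at 0.01 against WT. With limma-voom, *mt-Co1*, *mt-Cytb*, and *mt-Ts2* were at 0.04, 0.01, and −0.40 against ∆*Firre* and *mt-Rnr1* at 0.01 against WT. With quantile normalization, *mt-Co1*, *mt-Cytb*, and *mt-Atp6* were at 0.33, 0.32, and −0.37 against ∆*Firre*, *mt-Atp6* at −0.11 against WT, and *mt-Co1* and *mt-Cytb* at −0.33 and −0.24 between ∆*Firre* and WT. With 1 library left out, signs turned between ∆*Firre* and WT for *mt-Rnr2* (−0.01 to 0.21), *mt-Atp8* (−0.03 to 0.08), and *mt-Nd6* (−0.09 to 0.23). Between *Firre* rescue and ∆*Firre* they turned for *mt-Co1* (−0.13 to 0.02), *mt-Atp6* (−0.08 to 0.21), *mt-Nd3* (−0.00431 to 0.76), *mt-Nd4l* (−0.25 to 0.24), *mt-Ts2* (−0.71 to 0.66), and *mt-Cytb* (−0.18 to 0.01). Between *Firre* rescue and WT they turned for *mt-Rnr1* (−0.21 to 0.02), *mt-Co1* (−0.00193 to 0.15), *mt-Nd4l* (−0.36 to 0.13), and *mt-Cytb* (−0.04 to 0.16). None of these was called in the comparison named with the settings of the report. Depth limits the transfer RNA genes, several of which hold under 10 reads in most libraries.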
